A study of Mus musculus with 8 samples.

Results

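The respiratory chain and the ATP synthase are built from the products of many nuclear genes, and 77 of them were examined in the liver of Nnmt KO and control mice. The members were chosen by name from the count table: symbols of the Nduf families a, b, c, s and v, Sdha to Sdhd, all Uqcr genes, Cox4 to Cox8 and all Atp5 genes, without pseudogenes, and with a mean of at least 1 CPM (counts scaled to the library's total) over the 8 libraries. The names matched 85 symbols, of which 1 was a pseudogene and 7 lay under 1 CPM. This left 37 members in complex I, 4 in complex II, 8 in complex III, 11 in complex IV and 17 in complex V, out of 33212 genes in the table. The member just inside the limit was Ndufa4l2 (2.31 CPM), and the gene just outside it was Cox6a2 (0.82 CPM).

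Liver RNA came from 4 Nnmt KO mice (Alb-Cre::Nnmt flox/flox) and 4 control mice (Nnmt flox/flox, labelled WT and C57BL/6), all male and all kept for 8 weeks on a diet without methionine and choline (MCD diet), with 1 library per mouse. Nnmt encodes nicotinamide N-methyltransferase, and the Alb-Cre driver acts in hepatocytes, so the other cells of the liver keep the gene. No mouse on another diet and no mouse with Alb-Cre but without the flox alleles was compared here, so the genotype effect cannot be told apart from an effect of Cre itself. Total counts ran from 75020072 to 87934362 per library. Letters a to d name the 4 libraries of a genotype. Nnmt itself lay between 31.8 and 83 CPM in the Nnmt KO libraries and between 84.9 and 224 CPM in the control libraries. The 10 hepatocyte markers (such as Alb, the gene of serum albumin) summed to between 66363 and 116383 CPM in Nnmt KO and between 78165 and 116973 CPM in control libraries, with 0 of 10 past an unadjusted p of 0.05. In bulk tissue, fewer cells of a type and less RNA per cell cannot be told apart.

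As background, complex I oxidises NADH and complex II (succinate dehydrogenase) oxidises succinate, and both pass electrons to coenzyme Q. Complex III moves them from coenzyme Q to cytochrome c, and complex IV from cytochrome c to oxygen, while complexes I, III and IV pump protons that complex V uses to make ATP. Hepatocytes are rich in mitochondria. The mitochondrion's own DNA encodes a few core subunits, and the nucleus encodes all the others.

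Few of the nuclear subunit genes were called different between Nnmt KO and control livers. By edgeR's quasi-likelihood test, with p adjusted over all 15291 tested genes after Benjamini and Hochberg, 0 of 77 members passed an adjusted p of 0.05 (0.32% of all tested genes did), and DESeq2 also called 0 members (3.35% of all). At an unadjusted p of 0.05, 2 members were lower in Nnmt KO (7.13% of all tested genes were lower): Atp5sl and Uqcrc2. None was higher (5.45% of all). Together, 2.6% of the members passed the unadjusted threshold, against 12.6% of all tested genes. The same 2 members were the only ones whose 4 Nnmt KO libraries all lay below the 4 control libraries (4.81% of all tested genes), and 0 members had all Nnmt KO libraries above (3.34% of all).

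The log2 fold changes ran from -0.46 (Ndufa4l2) to 0.44 (Ndufa1), with a median of -0.02, beside a median of 0.02 for all tested genes. Below 0 were 49 members and above 0 were 28. The 95% interval stayed within 1 log2 unit of 0, that is within a 2-fold difference, for 76 of 77 members (73.3% of all tested genes), and within 0.5 log2 units for 60 members (35.9% of all). The exception was Ndufa4l2, the member with the fewest counts. Differences smaller than these intervals, whose half-widths ran from 0.24 to 0.55 (median 0.32), were not detectable with 4 mice per genotype. The medians by complex were -0.00 in complex I, -0.02 in complex II, -0.06 in complex III, -0.04 in complex IV and -0.03 in complex V.

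**Figure D1:**
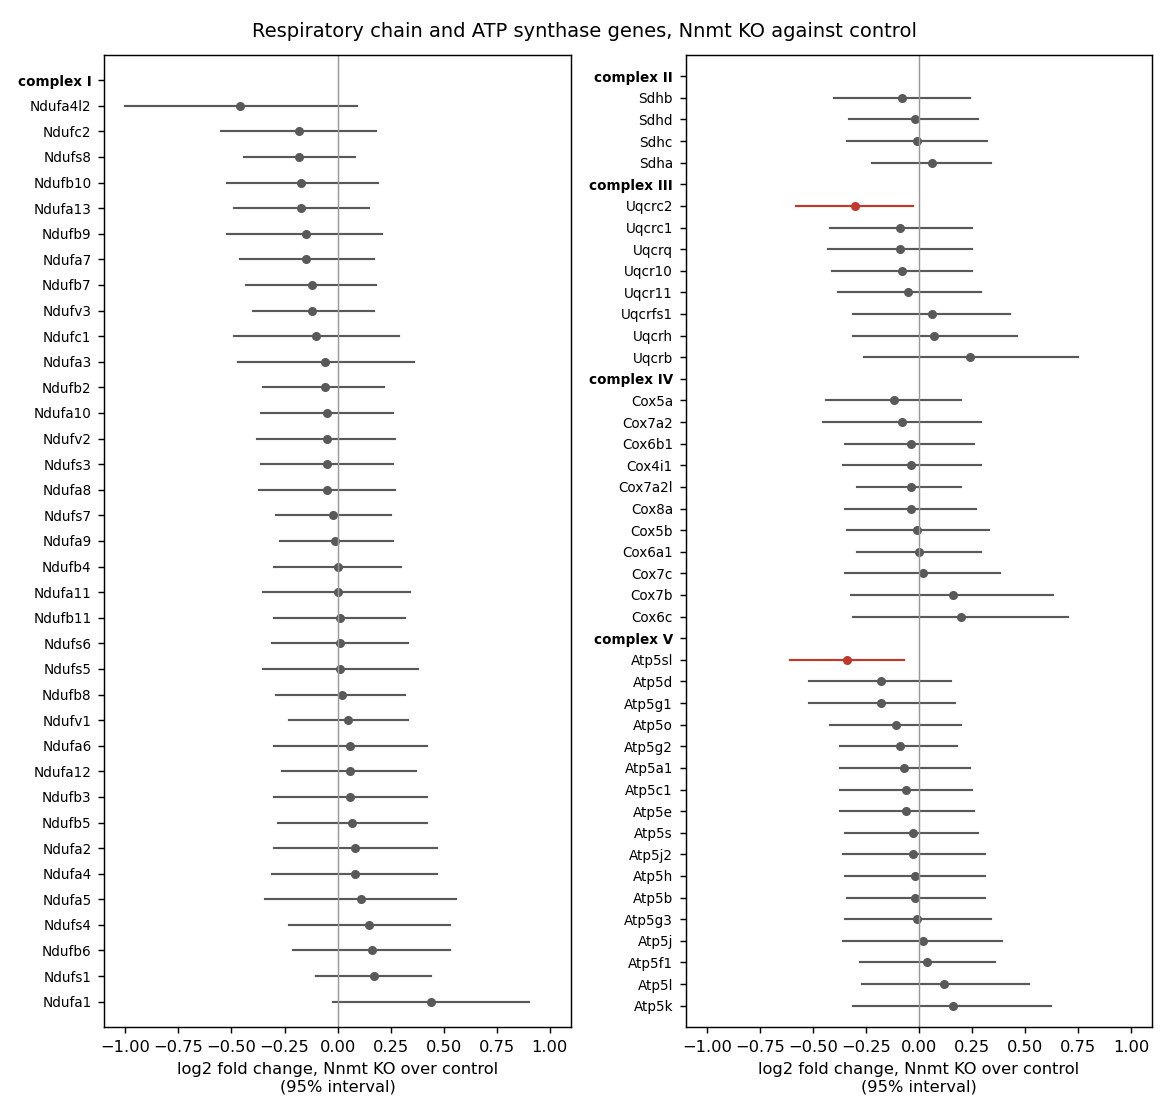
Log2 fold change of 76 of the 77 members, Nnmt KO over control, with its 95% interval from edgeR's fit, grouped by complex; red marks an unadjusted p under 0.05. The intervals of Uqcrc2 and Atp5sl lie below 0, and all others drawn cross it.

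Many promoters of respiratory genes are known to hold sites for nuclear respiratory factor 1 (NRF1), for ETS factors such as GABP, and for YY1, and these factors are known to drive the subunits together. RefSeq promoter windows (GRCm38.p6, from 250 bases before to 50 bases after a gene's start) were matched for 65 of the 77 members, 3 of them under a newer symbol, which gave 71 windows. The core letters of the NRF1 site, GCGCA and, 1 base further, GCGC, stood on either strand in 25.4% of the members' windows and in 8.75% of the windows of all tested genes. The ETS letters CCGGAAG stood in 22.5% against 15.4%, and the YY1 letters AAGATGGCG in 12.7% against 2.6%. None of these motifs contains another. The 17 members with the NRF1 letters had log2 fold changes from -0.11 to 0.16 with a median of 0.00, beside a median of -0.04 for the 48 without them.

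The 250 bases before the start are printed for 4 members. Sdhd and Cox6a1 show the NRF1 and ETS letters together, which 4 members hold, and both genes stood near 0. Atp5sl and Ndufa1 are the members with the smallest p in each direction. Capitals mark the NRF1 and ETS letters on either strand, and the last base printed is the one before the start. The window of Sdhd is chr9:50603850-50604099 on the minus strand, that of Cox6a1 chr5:115348959-115349208 on the minus strand, that of Atp5sl chr7:25619164-25619413 on the plus strand and that of Ndufa1 chrX:37191239-37191488 on the minus strand.
Sdhd: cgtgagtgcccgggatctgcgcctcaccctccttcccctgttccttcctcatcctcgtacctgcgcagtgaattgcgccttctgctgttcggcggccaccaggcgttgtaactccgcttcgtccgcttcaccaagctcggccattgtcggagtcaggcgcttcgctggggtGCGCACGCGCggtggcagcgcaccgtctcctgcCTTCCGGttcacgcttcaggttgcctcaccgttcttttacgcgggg
Cox6a1: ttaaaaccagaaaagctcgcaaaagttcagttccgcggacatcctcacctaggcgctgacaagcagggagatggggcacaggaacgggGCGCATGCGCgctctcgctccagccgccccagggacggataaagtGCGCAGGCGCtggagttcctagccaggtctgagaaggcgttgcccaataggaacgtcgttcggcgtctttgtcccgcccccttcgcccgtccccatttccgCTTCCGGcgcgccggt
Atp5sl: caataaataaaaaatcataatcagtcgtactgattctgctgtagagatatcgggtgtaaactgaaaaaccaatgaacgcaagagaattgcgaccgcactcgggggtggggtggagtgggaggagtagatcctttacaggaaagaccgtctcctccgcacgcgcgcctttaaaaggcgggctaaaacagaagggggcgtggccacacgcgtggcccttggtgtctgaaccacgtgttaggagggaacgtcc
Ndufa1: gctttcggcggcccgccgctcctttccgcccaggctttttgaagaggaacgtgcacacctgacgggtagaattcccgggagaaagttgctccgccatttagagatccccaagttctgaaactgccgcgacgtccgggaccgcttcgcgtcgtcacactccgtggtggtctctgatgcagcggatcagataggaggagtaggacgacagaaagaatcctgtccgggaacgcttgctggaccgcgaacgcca
Sdhd holds 1 run of NRF1 letters, 79 bases before the start, and 1 run of ETS letters on the other strand, 46 bases before it. Cox6a1 holds 2 runs of NRF1 letters, 162 and 117 bases before the start, and 1 run of ETS letters 16 bases before it. In the printed bases of Atp5sl and Ndufa1 none of the 3 motifs was found, which says only that these letters are not there. The windows of Atp5sl do hold the YY1 letters, within the 50 bases after the start used here, which are not printed.

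Complex I, the largest, has the nuclear-encoded part of its catalytic core among the Ndufs and Ndufv subunits, not all of which belong to the core. The Ndufa, Ndufb and Ndufc proteins are classed as accessory subunits around it. The 11 Ndufs and Ndufv members had a median log2 fold change of 0.01 (range -0.18 to 0.17), and the 26 Ndufa, Ndufb and Ndufc members a median of -0.01. Ndufa1, a small accessory subunit needed for assembly of the complex, lay at 26.8, 33.6, 38.2 and 57.1 CPM in Nnmt KO libraries a to d and at 29.2, 26.4, 35.1 and 24.2 CPM in control libraries a to d. The groups overlapped, and Nnmt KO library d stood well above the rest. Its mean was 38.9 ± 13 CPM (SD, n = 4) against 28.7 ± 4.72 CPM, and its log2 fold change of 0.44 (SE, standard error, 0.21) had unadjusted p = 0.0594 and adjusted p = 0.416 by edgeR. Under 6 of 14 alternative fits it passed an unadjusted p of 0.05, with log2 fold changes from 0.19 to 0.58 and adjusted p of at least 0.196. The gene (ENSMUSG00000016427) lies on chromosome X from 37187588 to 37191163, on the minus strand, in GENCODE's annotation of GRCm38.

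Ndufa4l2, a relative of Ndufa4 known from hypoxic cells, was near the limit of the choice. It lay at 1.61, 2.35, 2.27 and 1.6 CPM in Nnmt KO libraries a to d and at 2.85, 2.9, 3.27 and 1.72 CPM in control libraries a to d. Control library d fell among the Nnmt KO values, so that the groups overlapped. The log2 fold change was -0.46 (SE 0.25), with an adjusted p of 0.478 by edgeR, and it reached an unadjusted p of 0.0206 (adjusted p = 0.268) only without that control library. Ndufa4 itself, which is classed by name with complex I but is now known as a subunit of complex IV, took between 98.3% and 99.4% of the summed CPM of the pair in every library, and its log2 fold change was 0.08 (SE 0.18).

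Ndufs8, an iron-sulfur protein of the core, lay between 74.4 and 97.7 CPM in Nnmt KO and between 91.7 and 112 CPM in control libraries, and its log2 fold change of -0.18 had an unadjusted p of 0.164 (adjusted p = 0.57) by edgeR. Ndufb4, an accessory subunit, had a log2 fold change of -0.00.

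Complex II has 4 subunits, and all are members. Sdha, the flavoprotein that oxidises succinate, lay at 358, 448, 438 and 441 CPM in Nnmt KO libraries a to d and at 445, 415, 347 and 406 CPM in control libraries a to d. Sdhb, the iron-sulfur subunit, lay at 159, 222, 223 and 224 CPM against 242, 244, 195 and 192 CPM. In both genes, after TMM scaling, Nnmt KO libraries b, c and d lay close together, and library a was far below them. The log2 fold changes were 0.06 for Sdha (95% interval -0.22 to 0.34) and -0.08 for Sdhb (-0.40 to 0.24). The membrane anchors Sdhc and Sdhd had log2 fold changes of -0.01 and -0.02.

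In complex III, Uqcrc2, 1 of the 2 core proteins on the matrix side, was lower in Nnmt KO. It lay at 128, 172, 167 and 173 CPM in Nnmt KO libraries a to d and at 214, 204, 189 and 181 CPM in control libraries a to d. All 4 Nnmt KO libraries were below all 4 control libraries, although Nnmt KO library d and control library d lay close together. The mean was 160 ± 21.7 CPM (SD, n = 4) against 197 ± 14.6 CPM, with a log2 fold change of -0.30 (SE 0.13), unadjusted p = 0.0348 and adjusted p = 0.348 by edgeR. Without Nnmt KO library a, which held the lowest value, it was -0.21 with an unadjusted p of 0.0786 (adjusted p = 0.442), and without Nnmt KO library c, control library a or control library b the unadjusted p was 0.0516, 0.103 and 0.0728. The gene (ENSMUSG00000030884) lies on chromosome 7 from 120635176 to 120659524, on the plus strand.

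Uqcrc1, the other core protein, lay at 329, 432, 440 and 384 CPM in Nnmt KO and at 490, 475, 363 and 357 CPM in control libraries, with overlapping groups and a log2 fold change of -0.09 (95% interval -0.42 to 0.25). Uqcrb, a small subunit near the coenzyme Q site, had 90.8 CPM in Nnmt KO library d and between 37.4 and 56.6 CPM in the other 7 libraries, and its log2 fold change of 0.24 (SE 0.23) had an unadjusted p of 0.313 by edgeR. Uqcrq, another small subunit, had a log2 fold change of -0.09 (SE 0.16). The difference between Uqcrc2 and Uqcrc1 was not tested.

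**Figure D2:**
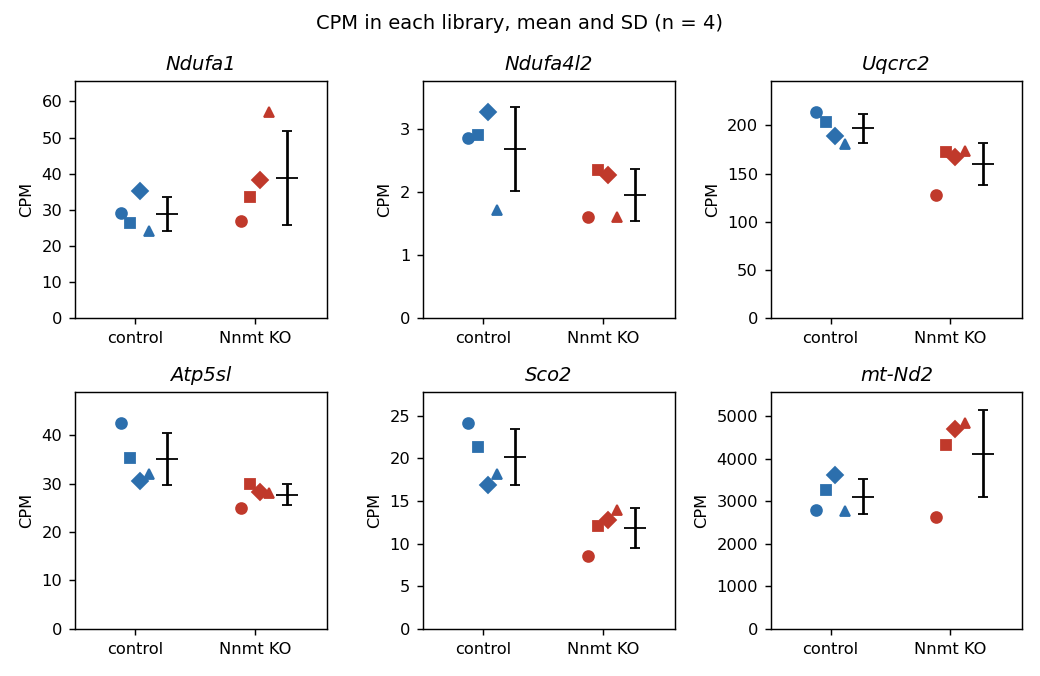
CPM in each library (circle, square, diamond and triangle for libraries a to d) for 4 members and for Sco2 and mt-Nd2, with the mean and SD of 4 mice beside them. Uqcrc2, Atp5sl and Sco2 have all Nnmt KO points below all control points, and Ndufa1, Ndufa4l2 and mt-Nd2 overlap.

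In complex IV the members measured here surround the core that mitochondrial DNA encodes, and none of the 11 passed an unadjusted p of 0.05. Cox4i1, the ubiquitous form of subunit 4, lay at 506, 656, 669 and 668 CPM in Nnmt KO libraries a to d and at 719, 714, 599 and 534 CPM in control libraries a to d. The control libraries spanned the values of Nnmt KO libraries b to d, and the log2 fold change was -0.04 (95% interval -0.36 to 0.29). Cox6c had 155 CPM in Nnmt KO library d and between 65.3 and 98.4 CPM in the other 7, with a log2 fold change of 0.20 (SE 0.23). Cox7b had 151 CPM in that library and between 66.2 and 97 CPM in the others, with a log2 fold change of 0.16 (SE 0.22). For both genes the higher Nnmt KO mean thus came from 1 library. Cox5a, a subunit on the matrix side, had a log2 fold change of -0.12 (SE 0.15).

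Several complex IV subunits have isoforms with different tissue patterns. The liver forms Cox4i1, Cox6a1, Cox6b1, Cox7b and Cox8a each held at least 99.7% of the summed CPM of their paralog set in every library, and their log2 fold changes lay between -0.04 and 0.16. Cox7a2 held between 41.7% and 51.2% of its set, beside Cox7a2l, a relative that takes part in supercomplexes. Cox6a2, the heart and muscle form of subunit 6a and the gene just under the limit, lay at 0.459, 0.781, 0.43 and 0.53 CPM in Nnmt KO libraries a to d and at 0.905, 1.36, 1.04 and 1.12 CPM in control libraries a to d. All Nnmt KO libraries were below all control libraries. Its log2 fold change was -1 (SE 0.31), with unadjusted p = 0.00775 and adjusted p = 0.2 by edgeR. The 9 striated muscle markers summed to between 0.705 and 0.976 CPM in Nnmt KO and between 0.772 and 0.999 CPM in control libraries, with 5 of 9 at 0 in every library.

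Complex V, the ATP synthase, has a catalytic head (Atp5a1, Atp5b, Atp5c1, Atp5d, Atp5e), a rotating ring of c subunits (Atp5g1, Atp5g2, Atp5g3) and a stalk. Atp5b, the catalytic beta subunit, had the highest level per length of transcript among all members (861 CPM per kilobase), followed by Cox4i1 (828) and Cox6a1 (772), and Ndufa4l2 had the lowest (2.49). Atp5b lay at 1386, 1796, 1745 and 1635 CPM in Nnmt KO libraries a to d and at 1847, 1822, 1440 and 1523 CPM in control libraries a to d. The groups covered nearly the same range, and its log2 fold change was -0.02 (95% interval -0.34 to 0.31). Atp5d, the delta subunit of the head, had a log2 fold change of -0.18 (SE 0.15, unadjusted p of 0.255 by edgeR).

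Atp5sl was the member with the smallest p. It lay at 24.9, 29.9, 28.2 and 28 CPM in Nnmt KO libraries a to d and at 42.6, 35.4, 30.5 and 32.1 CPM in control libraries a to d. The groups did not overlap but met closely, at 29.9 and 30.5 CPM. The mean was 27.7 ± 2.06 CPM (SD, n = 4) against 35.1 ± 5.36 CPM, with a log2 fold change of -0.34 (SE 0.12), unadjusted p = 0.0171 and adjusted p = 0.271 by edgeR. Without control library a, which held the highest value, it was -0.22 with an unadjusted p of 0.0794. The gene (ENSMUSG00000057229) lies on chromosome 7 from 25619414 to 25625551, on the plus strand. Despite its symbol it is not a subunit of complex V: its present name is Dmac2, and its product is known as an assembly factor of complex I. Atp5s, a related gene now named Dmac2l, lay between 6.05 and 8.11 CPM in all libraries, with a log2 fold change of -0.03.

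The c subunit is a special case, because Atp5g1, Atp5g2 and Atp5g3 encode the same mature protein with different import sequences. None of the 3 passed the test by itself: the log2 fold changes were -0.18 (SE 0.16) for Atp5g1, -0.09 (0.13) for Atp5g2 and -0.01 (0.16) for Atp5g3. Their shares within a library, which do not depend on the scaling between libraries, are given beside these values. Atp5g1 held 28.9%, 30.8%, 30.3% and 29.3% of the summed CPM of the 3 genes in Nnmt KO libraries a to d, against 32.7%, 32.1%, 31.7% and 31.8% in control libraries a to d. Atp5g3 held 55%, 54.4%, 54.3% and 56.9% against 52.5%, 52.7%, 53.4% and 52.4%. Neither share overlapped between genotypes, while that of Atp5g2 did (13.8% to 16% against 14.8% to 15.7%). The 3 shares of a library add up to its whole, so the lower Atp5g1 share and the higher Atp5g3 share are not separate results. The shares count reads and are not corrected for length, so they do not rank the 3 genes by number of transcripts. The differences in share were not tested, and the GC contents of the transcripts were 46.8%, 56.6% and 50.4% for Atp5g1, Atp5g2 and Atp5g3.

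**Figure D3:**
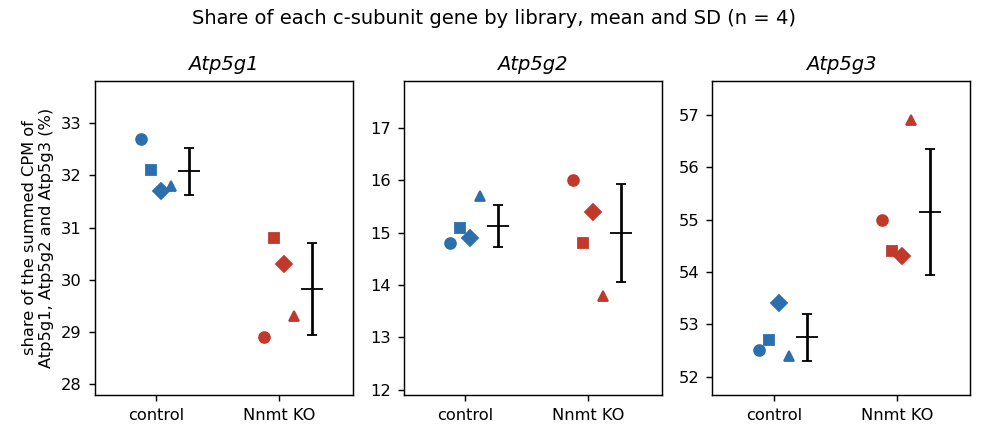
Share of Atp5g1, Atp5g2 and Atp5g3 in their summed CPM in each library (percent; circle, square, diamond and triangle for libraries a to d), with the mean and SD of 4 mice; each axis spans the same number of percentage points and does not start at 0. The Atp5g1 share is between 28.9% and 30.8% in Nnmt KO and between 31.7% and 32.7% in control libraries, and the Atp5g3 share lies the other way.

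Both called members lie on chromosome 7, where genes of the whole chromosome tended to be lower in Nnmt KO: 22.8% of its 1154 tested genes were lower at an unadjusted p of 0.05, against 5.86% of the genes elsewhere, and its median log2 fold change was -0.14. The 5 members on chromosome 7 (Atp5sl, Uqcrc2, Ndufc2, Ndufa3 and Cox6b1) all had negative log2 fold changes, from -0.34 to -0.04 with a median of -0.18. Of the 72 members on other chromosomes, 0 were lower at an unadjusted p of 0.05, and the smallest adjusted p among them was 0.416 in edgeR's fit. Cox6a2 lies on chromosome 7 as well. What part the chromosome has in these results was not tested.

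The members took like positions within each mouse. Taking each gene's deviation from its mean log2 CPM, the median over the 77 members was -0.36, 0.03, 0.02 and 0.21 in Nnmt KO libraries a to d, against 0.17, 0.15, -0.04 and -0.19 in control libraries a to d. After TMM scaling, Nnmt KO library a was the lowest in each of the 5 complexes. Gene by gene, it had the lowest value for 67 of 77 members (20.2% of all tested genes), and Nnmt KO library d the highest for 40 members (17.9% of all). The members' range over the 8 libraries had a median of 0.65 log2 units, against 0.85 for all tested genes. The 2 sets were not matched for CPM, so this does not show that the members varied less than genes of like level.

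**Figure D4:**
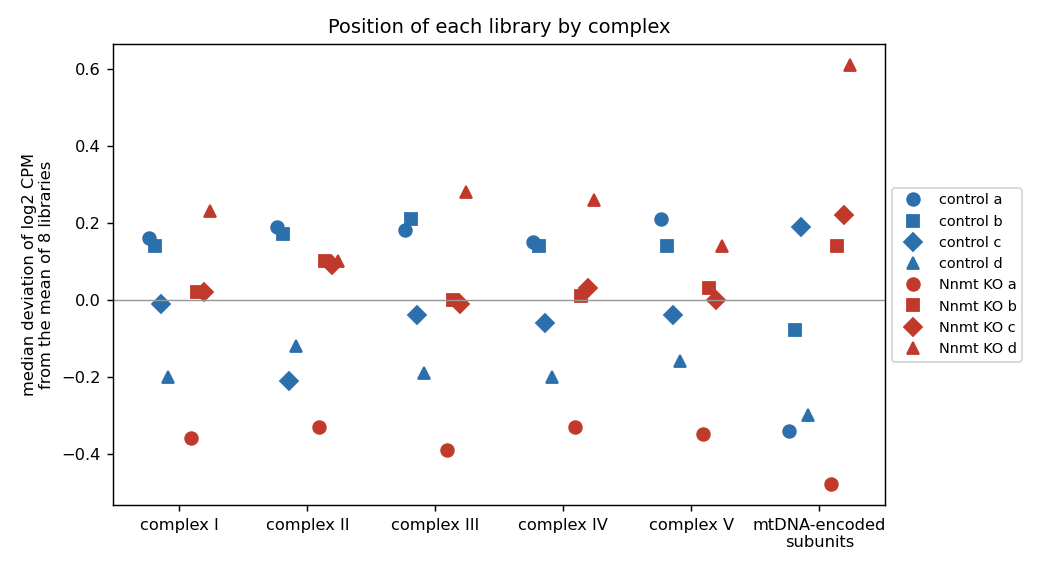
Median deviation of log2 CPM from the mean of the 8 libraries, for the members of each complex and for the 13 subunits encoded by mitochondrial DNA, in each library. After TMM scaling, as drawn, Nnmt KO library a is lowest for every complex, near -0.36. The mitochondrial DNA-encoded genes spread more widely, from -0.48 to 0.61.

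Scaling moved the members of Nnmt KO library a together with all other genes. TMM gave this library a factor of 1.21. The other Nnmt KO libraries had factors between 0.952 and 0.977, and the control libraries between 0.876 and 1.06. With scaling by library total only, the median deviation in Nnmt KO library a was -0.09 for the members and 0.28 for all tested genes, against -0.36 and 0.01 with TMM. The members thus lay below the other genes of that library. A factor shifts all genes of a library alike, so this relative position is the same under both scalings by construction. By library total, Nnmt KO library a was lowest for 16 of 77 members (5.02% of all tested genes), and Nnmt KO library d highest for 40 (11% of all). Control library d was then lowest for more members, 25 (6.42% of all), with a median deviation of -0.1. In TMM-scaled CPM, Nnmt KO library a held the highest sum of the macrophage and Kupffer cell markers (1222 CPM, against 529 to 1128 in the other 7 libraries). It also held the highest sums of the stellate cell and fibroblast markers (914 against 358 to 563) and of the cholangiocyte markers (286 against 51.1 to 179). Its sum of the hepatocyte markers was the lowest (66363 against 78165 to 116973). The part of these markers in the low members of Nnmt KO library a was not tested. Summed over all members, the CPM was 10684, 13847, 13767 and 15017 in Nnmt KO libraries a to d, against 15201, 14807, 12541 and 11986 in control libraries a to d after TMM scaling, a ratio of means of 0.978, or 1.04 without Nnmt KO library a. By library total alone the ratio was 1.01. The ratio for single complexes ran from 0.955 (complex III) to 1 (complex II) after TMM scaling and from 0.987 (complex III) to 1.04 (complex II) by library total. Each difference in means was smaller than the SD of the control libraries. For complex II by library total, with means of 985 CPM in Nnmt KO and 950 CPM in control libraries, it was larger than the Nnmt KO SD of 23 CPM. Without Nnmt KO library a, 1 member was lower (7.42% of all genes) and 2 were higher, Ndufa1 and Ndufs1 (5.84% of all), at an unadjusted p of 0.05.

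The 13 subunits encoded by mitochondrial DNA, made inside the mitochondrion and joined to the nuclear members, all had positive log2 fold changes, from 0.06 to 0.41 with a median of 0.26. None passed an unadjusted p of 0.05 in edgeR's fit of all 8 libraries. mt-Nd2, a membrane subunit of complex I, lay at 2620, 4325, 4688 and 4846 CPM in Nnmt KO libraries a to d and at 2803, 3258, 3612 and 2765 CPM in control libraries a to d. Nnmt KO libraries b, c and d were above every control library, and library a was below them all. Its log2 fold change was 0.41 (SE 0.20, unadjusted p = 0.0726, adjusted p = 0.44 by edgeR). mt-Nd4l, another membrane subunit of complex I, had a log2 fold change of 0.33 (SE 0.21). Here 1 library decided the count. Without Nnmt KO library a, 9 of 13 were higher at an unadjusted p of 0.05 (5.84% of all genes were), with a median of 0.42. None of the 13 passed the adjusted threshold (0.963% of all genes did). All genes of mitochondrial DNA together, not only these 13, held between 4.39% and 6.5% of all counts in Nnmt KO libraries. In control libraries they held between 3.88% and 5.65%. The order of the 13 subunits across libraries was not that of the nuclear members. Control library a stood at 0.17 for the nuclear members and at -0.34 for the mitochondrial DNA-encoded subunits. With the trend of GC content and length removed, their median was 0.07.

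The members' log2 fold changes went down with the GC content of their transcripts, with a Spearman correlation across the 77 genes of -0.39, beside -0.25 across all tested genes. Genes are not independent replicates, and these points share the same 8 libraries, so this is a description. In the 26 members with the lowest GC content the median was 0.04, in the middle 25 it was -0.02 and in the 26 with the highest -0.07, and all tested genes of the same GC content had medians of 0.08, -0.02 and -0.07. After the trend of GC content and length was removed from each library, the correlation was 0.10 and the members' median log2 fold change -0.01. The part of GC content in single results was not tested.

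**Figure D5:**
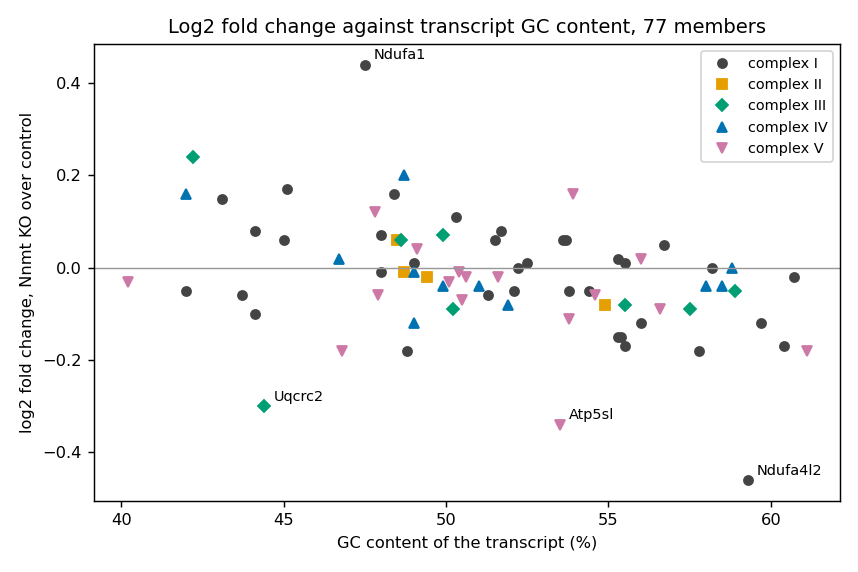
Log2 fold change of the 77 members, Nnmt KO over control, against the GC content of the transcript in percent, with symbols for the 5 complexes. Members of low GC content lie mostly above 0 and those of high GC content mostly below, with Ndufa1 highest at 0.44 and Ndufa4l2 lowest at -0.46.

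Genes that build the complexes were examined beside the subunits. Of 22 tested complex IV assembly factors, 4 were lower in Nnmt KO at an unadjusted p of 0.05 (18.2%, against 7.13% of all tested genes), and 0 were higher: Sco2, Coa4, Surf1 and Coa3. Sco2, which brings copper to complex IV, lay at 8.53, 12.1, 12.8 and 14 CPM in Nnmt KO libraries a to d and at 24.2, 21.4, 16.9 and 18.2 CPM in control libraries a to d. All Nnmt KO libraries were below all control libraries, and the mean was 11.9 ± 2.36 CPM against 20.2 ± 3.26 CPM (SD, n = 4). The log2 fold change was -0.77 (SE 0.17), with an adjusted p of 0.0899 by edgeR, and between 0.00434 and 0.296 under the alternatives, of which only DESeq2 put it past the threshold. Coa4, on chromosome 7, had a log2 fold change of -0.51 (SE 0.17, adjusted p = 0.25 by edgeR). Without Nnmt KO library a, 2 of the 22 were lower, against 7.42% of all genes in that fit. The median of this list was -0.10.

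The assembly factors of complexes I (14 tested), III (5) and V (4) held no gene past an unadjusted p of 0.05. Members were left out of these lists, so Atp5sl (Dmac2), lower at an unadjusted p of 0.0171 by edgeR, is not among the 14 for complex I. Of the 2 tested for complex II, Sdhaf1, also on chromosome 7, was lower with a log2 fold change of -0.39 (adjusted p = 0.392 by edgeR). The remaining values of the pairs with the smallest p were -0.24 for Timmdc1 and 0.39 for Ndufaf4 (complex I), -0.13 for Sdhaf2 (complex II), -0.27 for Bcs1l and -0.14 for Uqcc2 (complex III), and -0.18 for Atpaf1 and 0.17 for Tmem242 (complex V). Of 5 further nuclear genes tested beside the name rule, 0 passed. Cycs, which encodes cytochrome c, stood at 0.22, and Atpif1, the inhibitor of the ATP synthase, at -0.15.

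The ribosome of mitochondria translates the mitochondrial DNA-encoded subunits. Of 77 tested genes named for its proteins, 14 were lower at an unadjusted p of 0.05 (18.2%, against 7.13% of all). Only Mrps31 was higher (1.3%, against 5.45%), and the median was -0.11. The 77 include the pseudogene Mrps36-ps1, which was not among the 14. The adjusted p was at least 0.0711 by edgeR, and 65 of 77 were below 0. Mrps11, of the small subunit, lay at 13.9, 16.4, 16.3 and 16.8 CPM in Nnmt KO libraries a to d and at 24.1, 21.6, 23.6 and 21.7 CPM in control libraries a to d. Mrpl17, of the large subunit, lay at 80.9, 96.8, 98.4 and 90.2 CPM against 149, 159, 144 and 112 CPM. Neither gene's groups overlapped, and the log2 fold changes were -0.52 (SE 0.10) and -0.62 (SE 0.13). Both lie on chromosome 7, which held 5 of the 14 lower genes but only 6 of the 77 tested; off chromosome 7, 9 of 71 were lower (12.7%, against 5.86% of all tested genes there). Without control library a, 7 of the 77 were lower, against 3.97% of all genes in that fit.

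Among 16 tested regulators of mitochondrial transcription and biogenesis, 1 was higher (6.25%, against 5.45% of all tested genes) and 2 were lower (12.5%, against 7.13%) at an unadjusted p of 0.05. Ppargc1a, the coactivator known to drive mitochondrial biogenesis through NRF1 and other factors, lay at 15.4, 18.5, 23.1 and 26.6 CPM in Nnmt KO libraries a to d and at 12.9, 12.3, 10.5 and 11.8 CPM in control libraries a to d. All Nnmt KO libraries were above all control libraries. Its log2 fold change was 0.82 (SE 0.17, adjusted p = 0.0711 by edgeR), and the adjusted p ran from 0.00104 to 0.252 over the 14 alternatives, 2 of which passed 0.05. Tfb1m, which methylates the small ribosomal RNA of mitochondria, lay at 6.15, 7.76, 6.56 and 6.57 CPM in Nnmt KO libraries a to d and at 11.4, 11.2, 9.79 and 9.44 CPM in control libraries a to d. Again the groups did not overlap, with a log2 fold change of -0.63 (SE 0.13, adjusted p = 0.0725 by edgeR). Polg, the mitochondrial DNA polymerase on chromosome 7, named after its value was seen, was the other lower gene (-0.46, adjusted p = 0.117 by edgeR).

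In the pathways that feed the chain, 1 of 13 citric acid cycle genes was lower at an unadjusted p of 0.05 (7.69%, close to the 7.13% of all tested genes). This was Cs (citrate synthase), at 161, 171, 158 and 152 CPM in Nnmt KO libraries a to d and at 224, 184, 195 and 198 CPM in control libraries a to d, with no overlap and a log2 fold change of -0.32 (SE 0.11, adjusted p = 0.237 by edgeR). Fh1 (fumarate hydratase) had a log2 fold change of 0.37 with overlapping groups. Of 11 coenzyme Q genes, 1 was higher and 1 lower (9.09% each, against 5.45% and 7.13% of all): Coq10b (0.60) and Coq7 (-0.33), with adjusted p of 0.294 and 0.367 by edgeR. Of 16 carriers, import and cristae genes 0 passed an unadjusted p of 0.05, with Opa1 at 0.20 and Tomm20 at 0.19.

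Markers of other liver cells were read in the same fit. At an unadjusted p of 0.05, 3 of 8 stellate cell and fibroblast markers, 2 of 6 cholangiocyte markers and 1 of 8 lymphocyte and neutrophil markers were higher in Nnmt KO (5.45% of all tested genes), 1 of 5 red cell markers was lower (7.13% of all), and 0 of 7 macrophage, 0 of 6 endothelial, 0 of 1 adipocyte and 0 of 2 pancreatic acinar markers passed. The stellate cell and fibroblast markers summed to between 477 and 914 CPM in Nnmt KO and between 358 and 563 CPM in control libraries, and the cholangiocyte markers to between 91.1 and 286 against 51.1 and 169 CPM. Nnmt KO library a held the highest sum of both lists. Without it, the Nnmt KO sums ran from 477 to 525 CPM and from 91.1 to 179 CPM. Their part in the members' values was not tested.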

How the data were processed

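Liver RNA was sequenced from 4 Nnmt KO and 4 control mice. The authors deposited raw counts, 1 whole number per gene and library. The paper names HISAT2 for both alignment and quantification, and the submitters' notes name HISAT2, StringTie and mm10. The annotation and the strand setting are not given in the sources used here. The paper names the KAPA kit and the labels the NEBNext Ultra kit. Columns carry the genotype but no mouse number, and 0 columns were left out.

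Genes were kept by filterByExpr (minimum count 10) and tested with edgeR 4.0.16 in R 4.3.3 (TMM, quasi-likelihood test, genotype only, Benjamini-Hochberg over 15291 genes), with DESeq2 1.42.0 as an alternative. Printed CPM are TMM-scaled, except for the limit of 1 CPM, which uses library totals. Standard errors follow from the F statistic, and deviations use log2 CPM with a prior count of 2. Positions, GC content and lengths come from GENCODE M21 (GRCm38), which held 15146 tested genes (99.1%) and all members. Scripts were tested on simulated data.

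The members and lists were chosen with earlier results of these data known. Named were, per complex, the 3 members with the smallest p (2 in complex II) and that with the highest CPM, paralog sets, and the 2 genes of each list with the smallest p. Of these, 1 gene is not reported here. Others are marked or given as counts. Alternatives were other scalings, DESeq2, no filter, each library left out, members of chromosome 7 or under 10 CPM left out and, added after the data were seen, GC and length trend removal and leaving out Atp5s, Atp5sl, Cox7a2l and Ndufa4l2. Other experiments of the study were not analysed here.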

Additional observations from a re-analysis of the deposited data

Results flagged for a closer look

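By Dixon's criterion, a library stood far from the other 3 of its genotype in 7 of 76 groups of 4 values examined. Chance alone gives about 1 in 20, or 3.8, for any library of either genotype. It is not the number expected for a single library. The library flagged each time was Nnmt KO library a. Its TMM factor was 1.21, against 0.952 to 0.977 in the others. The members concerned were Sdhb (159 CPM against 222 to 224), Sdha (358 against 438 to 448), Uqcrc2 (128 against 167 to 173), Cox4i1 (506 against 656 to 669) and Atp5g2 (91.5 against 113 to 116), together with the summed CPM of complex II (791 against 1029 to 1044). All 7 values are from this 1 library, and the 6 values in CPM share its TMM factor, so they are not independent. The flagged CPM values are those after TMM scaling. By library total, the complex II sum was 956 CPM in this library, against 980 to 1009 CPM in the other 3, still lowest but near them. No control library stood apart in this way. Some cell type markers, named after their values were seen, also lay apart in this library, with no criterion applied: Col1a1, a collagen gene of stellate cells, at 106 CPM (21.4 to 39.4 in the other Nnmt KO libraries), Col3a1 at 231 CPM (40.7 to 74.4), Lyz2 of macrophages at 527 CPM (194 to 216) and Alb of hepatocytes at 48513 CPM (76929 to 89487). Other markers of the macrophage and stellate cell lists did not. Clec4f lay lower, at 96.1 CPM (109 to 118). Marco at 70.6 CPM (55.7 to 85.6), Vsig4 at 31.9 CPM (25.2 to 36.6) and Reln at 111 CPM (90.9 to 119) lay within the others.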

How the results depend on the processing

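No member passed an adjusted p of 0.05 in any of the 14 alternative fits, where the smallest was 0.195. The members' median log2 fold change lay between -0.12 and 0.07 when 1 library was left out. By library total it was 0.03, with the median of all tested genes at 0.07 (-0.02 and 0.02 with TMM). Members higher at an unadjusted p of 0.05 numbered 1 in place of 0 by library total, without mitochondrial DNA-encoded genes, with DESeq2 and with the GC and length trend removed (Ndufa1 each time), and 0 to 2 when 1 library was left out. By library total, 1 member had all Nnmt KO libraries above all control libraries. After TMM scaling 3.34% of all tested genes did, and the share by library total is not given here. Members lower numbered 0 without chromosome 7, 1 without Atp5s, Atp5sl, Cox7a2l and Ndufa4l2, and 0 to 3 when 1 library was left out. Mitochondrial DNA-encoded subunits higher numbered 1 by library total and with DESeq2, and 0 to 9 when 1 library was left out. Complex IV assembly factors lower numbered 2 by library total and 1 to 6 when 1 library was left out, and mitochondrial ribosomal genes lower 7 to 15. With DESeq2, 1 complex IV assembly factor and 6 mitochondrial ribosomal genes passed an adjusted p of 0.05 (3.35% of all tested genes did). When 1 library was left out, between 3.97% and 7.6% of all tested genes were lower at an unadjusted p of 0.05, and between 4.12% and 7% higher. By library total 4.05% were lower and 5.35% higher, and with DESeq2 6.65% were higher. The causes were not tested. Over 26 named members and 14 alternatives, 56 of 364 values changed sign, none of them in a called result. No paired analysis was possible because the columns carry no mouse number. How far depth and how far the spread between mice set the intervals was not tested.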
